A study of Mus musculus with 6 samples.

Results

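Adenosines inside introns that were read as G in mouse fetal liver RNA are described here, in wild-type livers and in livers whose ADAR1 cannot edit. The members are the sites of the deposited site table whose location is given as intronic (1485 sites) or as intronic in a non-coding RNA (21 sites), with at least 10 covering reads summed over the 3 libraries of each genotype. They number 1506 of the 6012 sites in the table, and of the 3883 sites at any location with that many reads. A further 1369 intronic sites had fewer reads. The wild-type group (WT) held C57BL/6 livers 2 (male), 15 and 17 (both female) at embryonic day 12.5. The mutant group, named E861A here, held C57BL/6 livers 6, 16 and 19 (all male) of the same age, homozygous for the Adar1 E861A allele. Each library was made from the total RNA of a whole liver dissociated to single cells, so all cell types of the liver were pooled, and sex was partly tied to genotype.

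ADAR enzymes bind double-stranded RNA and deaminate adenosine to inosine, which is copied as G when the RNA is sequenced. ADAR1 (gene Adar) and ADAR2 (gene Adarb1) are the active editing enzymes of mammals, and the E861A change disables the deaminase of ADAR1 while the protein is still made. Introns are a main place of editing because unspliced transcripts hold many copies of short interspersed repeats such as B1 and B2. Neighbouring copies in opposite orientation can fold into long duplexes. Most intronic RNA is spliced out and degraded, so libraries of total or polyadenylated RNA cover it thinly.

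The sequence around a member shows the adenosine and its repeat setting. In the windows below, read 5′ to 3′ from the NCBIM37 mouse genome on the strand where the edited base is A, that base is in capitals. They are shown because they hold 8 of the 20 lower members with the smallest p-values.
Gm5512, chr10:5918264-5918304, plus strand: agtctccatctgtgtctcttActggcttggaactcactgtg
Rnf8 intron, chr17:29791194-29791234, minus strand: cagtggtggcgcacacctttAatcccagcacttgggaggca
Pigq, chr17:26066398-26066438, minus strand: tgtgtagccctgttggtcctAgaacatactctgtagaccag
Slc11a2, chr15:100222140-100222180, minus strand: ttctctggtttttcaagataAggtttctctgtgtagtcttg
Dffa, chr4:148492843-148492883, plus strand: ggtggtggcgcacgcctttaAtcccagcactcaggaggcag
Zfp783, chr6:47898482-47898522, plus strand: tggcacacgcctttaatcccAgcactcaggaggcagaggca
Cenpa, chr5:30973239-30973279, plus strand: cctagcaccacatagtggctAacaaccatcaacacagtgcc
Tbccd1, chr16:22854496-22854536, minus strand: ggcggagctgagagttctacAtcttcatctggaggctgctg

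A stretch of 14 bases, TTTAATCCCAGCAC, runs through the Rnf8, Dffa and Zfp783 windows. The edited A is base 4 of the stretch in Rnf8, base 5 in Dffa and base 10 in Zfp783. On either strand this stretch stood within the 201-base window of 181 members (12.0%) and of 9.73% of all 3883 sites with enough reads. The share was 12.2% for sites between genes and 8.12% for sites in 3′ UTRs. It was 1.32% for 48751 adjoining windows of that length from a 10 Mb stretch of chromosome 19. In 46 members the edited base itself was part of the stretch, at base 4 in 26 of them, at base 5 in 18 and at base 10 in 2. The stretch was picked after the windows had been seen, so its frequency is a description of where the members lie.

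The bases next to the members differed from those next to other adenosines nearby. G came just before 2.86% of the members, and before 23.4% of 54637 other adenosines within 100 bases on the same strand. T came before 52.1% of members and 20.3% of the other adenosines. After the edited base, G stood at 48.3% of members and at 30.2% of the others. It followed 35.2% of the 122 members lower in E861A, 49.6% of those not called and 57.8% of the 270 with no edited WT read. A scarcity of G before the site and a preference for G after it are known features of ADAR substrates. The share with G before was 4.73% for sites between genes and 12.6% for sites in 3′ UTRs.

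Around 1022 members (67.9% of the 1506) the sequence was repeated, with 10 or more copies in the same 10 Mb of chromosome 19. A matching stretch in opposite orientation lay within 2000 bases of 301 of the 1506 members, counted where at least 50 bases aligned at 80% identity or more and the alignment covered the site. The share was 19.99% for members, 21.03% for 3′ UTR sites and 25.9% for sites between genes. Members also clustered: 780 of the 1506 had another member within 100 bases.

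The first intron of Tbccd1, a gene of a centrosome and Golgi protein of the tubulin cofactor C family, shows such a pair. Its 2 arms are 195 and 194 bases, match in opposite orientation at 86.7% identity and lie 1189 bases apart. Capitals in the first arm mark its 3 lower members, and no member lay in the second arm.
Tbccd1 arm 1, chr16:22854422-22854616, minus strand: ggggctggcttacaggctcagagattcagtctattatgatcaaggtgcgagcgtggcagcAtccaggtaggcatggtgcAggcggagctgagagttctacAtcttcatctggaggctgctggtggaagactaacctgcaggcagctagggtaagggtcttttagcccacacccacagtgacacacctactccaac
Tbccd1 arm 2, chr16:22855806-22855999, minus strand: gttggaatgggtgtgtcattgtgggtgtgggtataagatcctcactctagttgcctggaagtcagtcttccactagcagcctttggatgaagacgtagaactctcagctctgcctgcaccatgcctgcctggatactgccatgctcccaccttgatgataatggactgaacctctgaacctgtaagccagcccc

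Editing in introns was lower in the E861A livers. The mean level over members was 7.22% in WT 2, 10.7% in WT 15 and 9.62% in WT 17, and 2.57% in E861A 6, 2.74% in E861A 16 and 2.46% in E861A 19. Every WT library lay above every E861A library, with means of 9.17% ± 1.77 (SD, n = 3) and 2.59% ± 0.143 (SD, n = 3). The two-sided exact permutation test over libraries gave p = 0.1, the smallest value that 3 libraries against 3 allow. Each of the 6012 sites in the table had an edited read in at least 1 library, so a thinly covered site cannot show a low level in all of them, and mean levels of different locations rest on different depths. How sites entered the table from each genotype is not given in the sources used here, and its part in the difference was not tested.

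**Figure D1:**
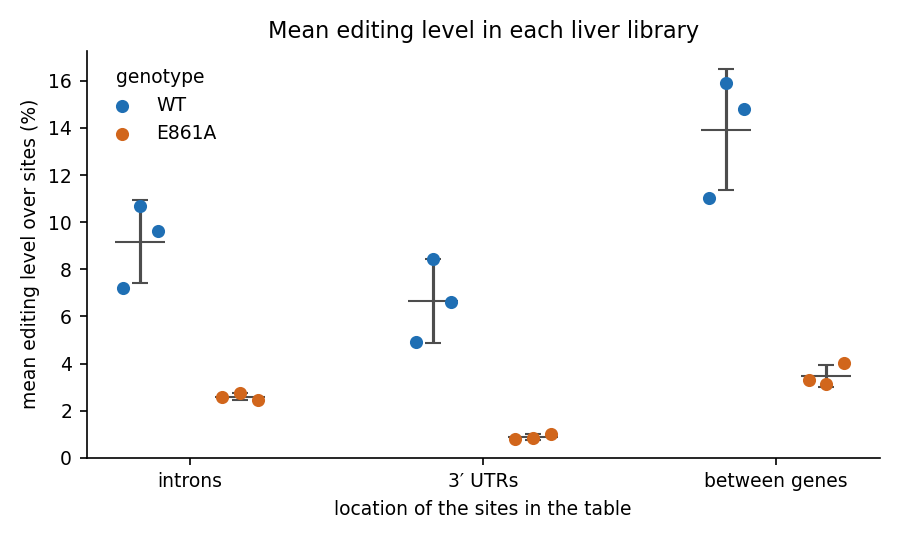
Mean editing level over sites (percent, vertical axis) in each library, for sites in introns, in 3′ UTRs and between genes; points are libraries, horizontal bars means and error bars SD over 3 libraries. The WT points for introns lie between 7.22% and 10.7% and the E861A points between 2.46% and 2.74%.

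In 3′ UTRs the same means were 6.65% ± 1.76 in WT and 0.878% ± 0.113 in E861A (SD, n = 3 each). The level in introns minus that in 3′ UTRs was 2.30, 2.24 and 3.02 percentage points in WT 2, 15 and 17, and 1.78, 1.90 and 1.45 in E861A 6, 16 and 19. The 2 genotypes differed in it by -0.807 percentage points (exact permutation p = 0.1, the smallest possible). With at least 20 reads per genotype this difference was 0.516 (exact permutation p = 0.4), and without E861A 19 it was 0.0093, so no difference between the locations was established on the scale of percentage points. As a ratio, the WT mean was 3.54 times the E861A mean in introns and 7.58 times in 3′ UTRs. From edited reads summed over sites, the ratio in introns was 2.45. The difference between these ratios was not tested. The summed measure leans on 1 site, at chromosome 8, position 4089029, which was read as G in nearly every read of both genotypes. It held 930 of the 2582 edited E861A reads of all members and 677 of the 6170 edited WT reads.

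Of the members, 122 (8.10%) were lower in E861A by Fisher's exact test on summed reads with Benjamini-Hochberg adjustment over all 3883 sites, and 2 were higher. The background for that call was 16.7% lower and 0.155% higher among all sites. In 3′ UTRs 422 of 1688 sites were lower (25.0%). At unadjusted p under 0.05, 223 members were below WT and 6 were above. Regardless of any test, 1122 members had a lower level in E861A and 379 a higher one. Fisher's test treats reads of different livers alike. A quasi-binomial model that estimates the spread of each site from its 6 libraries called 0 members in either direction, with 127 below WT and 2 above it at unadjusted p under 0.05. The same model with a spread shared over all sites called 146 lower, among them all 122, and 3 higher.

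**Figure D2:**
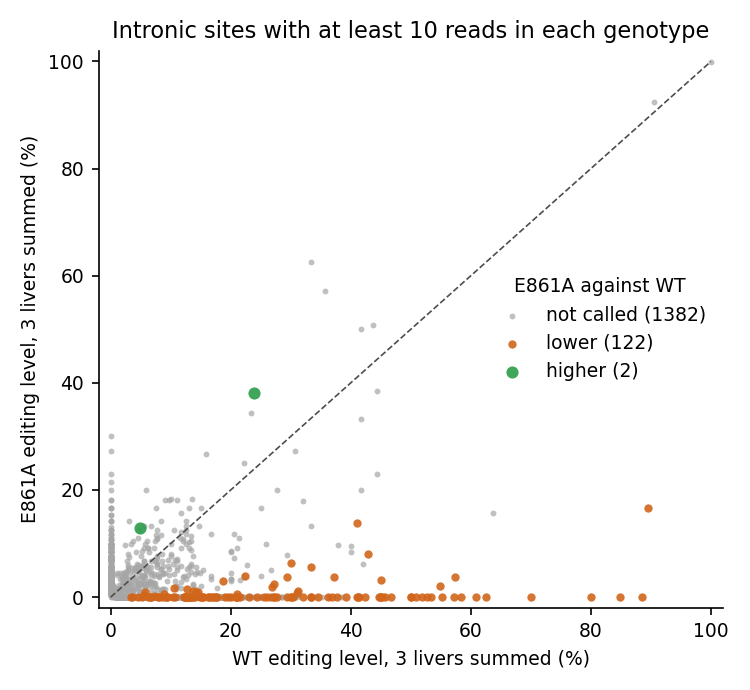
Editing level of each of the 1506 members in WT (horizontal, percent) and E861A (vertical, percent), reads summed over 3 livers; colours give the Fisher call and the dashed line marks equal levels. Most of the 122 lower sites lie on the horizontal axis, and the 2 higher sites lie above the dashed line.

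The share of members called grew with read depth. The median site had 32 WT and 30 E861A reads in introns, against 134.5 and 141 in 3′ UTRs. Where the thinner genotype had 10 to 19 reads, 19 of 568 members were lower (3.35%), and where it had 80 or more, 35 of 169 were (20.7%). For 3′ UTR sites of those depths the shares were 6.31% and 32.6%. At 80 or more the depths were not matched: the median site had 135 WT and 153 E861A reads in introns, and 240 and 238 in 3′ UTRs. Only between 40 and 79 reads were the locations close, at 13.3% of members and 12.1% of 3′ UTR sites. The summed cover of members, scaled like CPM to the reads counted in genes, was 814, 593 and 582 in WT 2, 15 and 17 and 535, 754 and 805 in E861A 6, 16 and 19. The genotypes overlapped in it (exact permutation p = 1).

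**Figure D3:**
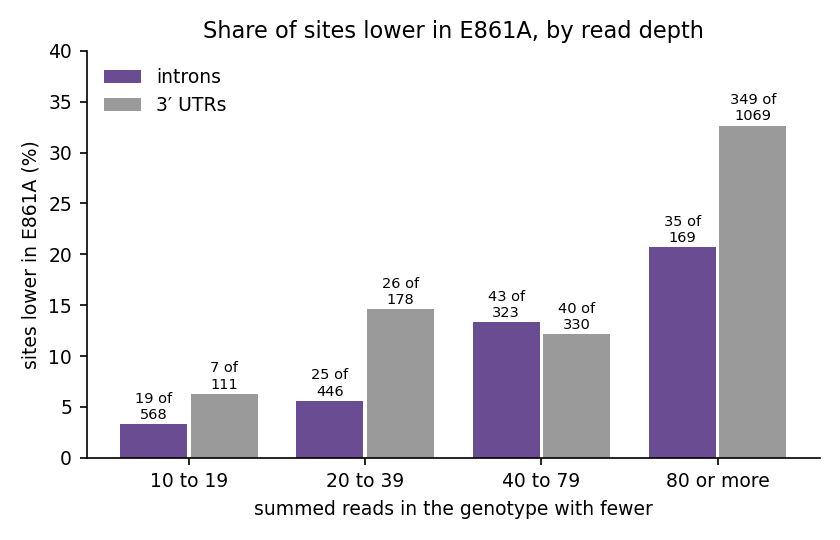
Share of sites lower in E861A (percent, vertical axis) by the summed reads of the genotype with fewer (horizontal axis), for introns and 3′ UTRs; numbers over the bars give lower sites of all sites. The bar for introns grows from 3.35% at 10 to 19 reads to 20.7% at 80 or more.

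The 122 lower members lay in 82 genes, 22 of which had 2 or more. Their median level was 21.4% in WT and 0 in E861A, and 95 of them had no edited read in any E861A library. With reads in all 6 libraries, 98 of 121 had every WT level above every E861A level. Among all members covered in all 6 libraries the count was 172 of 1396 (12.3%). The lower members were called from these same reads, so their separation is partly built in. An inverted match covered 29.5% of the lower members and 19.2% of those not called, and repeated sequence 76.2% and 67.2%. On the table's column for earlier knowledge, 1168 members carried only the label known, and 12 of these were lower. Of 338 members with the other label, alone or beside it, 110 were lower. Each of the 338 had an edited WT read, while 270 of the 1168 had none, so these counts do not compare like sites.

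The steepest loss was at chromosome 10, position 5918284, listed under Gm5512 and lying 112 bases from an exon edge in intron 3 of Rmnd1 in GENCODE M1. Rmnd1 encodes a protein needed for mitochondrial translation. The level was 90.9% of 33 reads in WT 2, 83.3% of 6 in WT 15 and 84.6% of 13 in WT 17. None of 17, 23 and 15 reads was edited in E861A 6, 16 and 19. Summed, 46 of 52 WT reads were edited (88.5%, 95% Wilson interval 77.0 to 94.6) and 0 of 55 E861A reads, which allows a level of up to 5.45% (Fisher's exact test, adjusted p = 3.6e-22). The other 2 members of that intron were at 4.08% and 4.55% in WT, so the site stood far above its neighbours.

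Pigq, a subunit of the enzyme that begins the synthesis of glycosylphosphatidylinositol anchors, was edited in intron 9 at chromosome 17, position 26066418. The levels were 25.0%, 28.3% and 38.7% in WT 2, 15 and 17, and 0 of 208 summed reads was edited in E861A (at most 1.44%; adjusted p = 4.55e-21). In intron 7 of Rnf8, a ubiquitin ligase of the DNA damage response, the site at chromosome 17, position 29791214 was edited at 18.3%, 26.9% and 26.3% in WT. Of 292 E861A reads there none was edited (at most 1.03%). The table lists that site under ENSMUSG00000090083, and its A lies on the strand opposite to Rnf8.

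Slc11a2 encodes the iron transporter DMT1, which red cell precursors use to move iron out of endosomes. In its intron 16 the site at chromosome 15, position 100222160 was edited at 42.3%, 52.0% and 61.5% in WT 2, 15 and 17, and in 0 of 65 E861A reads (at most 4.62%; Fisher's exact test, adjusted p = 1.77e-12). Of 5 members of Slc11a2, 3 were lower. Slc11a2 RNA fell by 0.88 ± 0.220 (SE) on the log2 scale (edgeR adjusted p = 0.039). Dffa, the inhibitor of the apoptotic nuclease CAD, was edited at chromosome 4, position 148492863 in 19.2%, 55.6% and 37.8% of WT reads and in 0 of 78 E861A reads. In Zfp783 the site at chromosome 6, position 47898502 fell from 57.4% (31 of 54 reads) to 3.77% (2 of 53), with 1 E861A library, number 19, at 6.67% and the others at 0.

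Cenpa, the histone H3 variant of centromeres, had a low but deeply covered site in intron 3 at chromosome 5, position 30973259. It was edited at 5.08%, 12.2% and 5.21% in WT 2, 15 and 17, from 404 reads in all, and in 1 of 488 E861A reads (0.205%, 95% Wilson interval 0.0362 to 1.15). Calls were made at high and at low WT levels. Of the 23 members at 50% or more in WT, 18 were lower, and of 363 members from 5% to under 10%, 15 were.

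On chromosome 14, 4 of the named sites lay on the strand of Gm16867, a long non-coding RNA that overlaps Loxl2 in the opposite direction. The site at position 70025871, listed under Loxl2, was edited at 10.5%, 25.7% and 31.3% in WT 2, 15 and 17 and in 0 of 245 E861A reads. At position 70025697 the summed level fell from 19.6% of 490 reads to 0 of 178, and at 69992896 from 44.8% of 58 reads to 0 of 52. Position 70025837 had 6.20% of 710 WT reads edited and 0 of 253 in E861A. Strand is not recorded in the counts, so reads from the overlapping genes cannot be told apart. Over all members, 40 had their A on a strand other than that of the gene they were listed under, and 13 of these were lower.

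A930015D03Rik, a non-coding transcript on chromosome 17, had a different balance of reads. At position 36141420 the cover was 33, 48 and 27 reads in WT 2, 15 and 17 and 664, 391 and 417 in E861A 6, 16 and 19. The level was 13.9% (15 of 108) in WT and 0.204% (3 of 1472) in E861A (Fisher's exact test, adjusted p = 3.56e-14). At position 36140805 the levels in WT were 66.7% of 3 reads, 55.6% of 9 and 0 of 5, and in E861A 0 of 275 reads was edited. That site lay in a 125-base arm with an inverted match of 92.8% identity 1279 bases away.

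**Figure D4:**
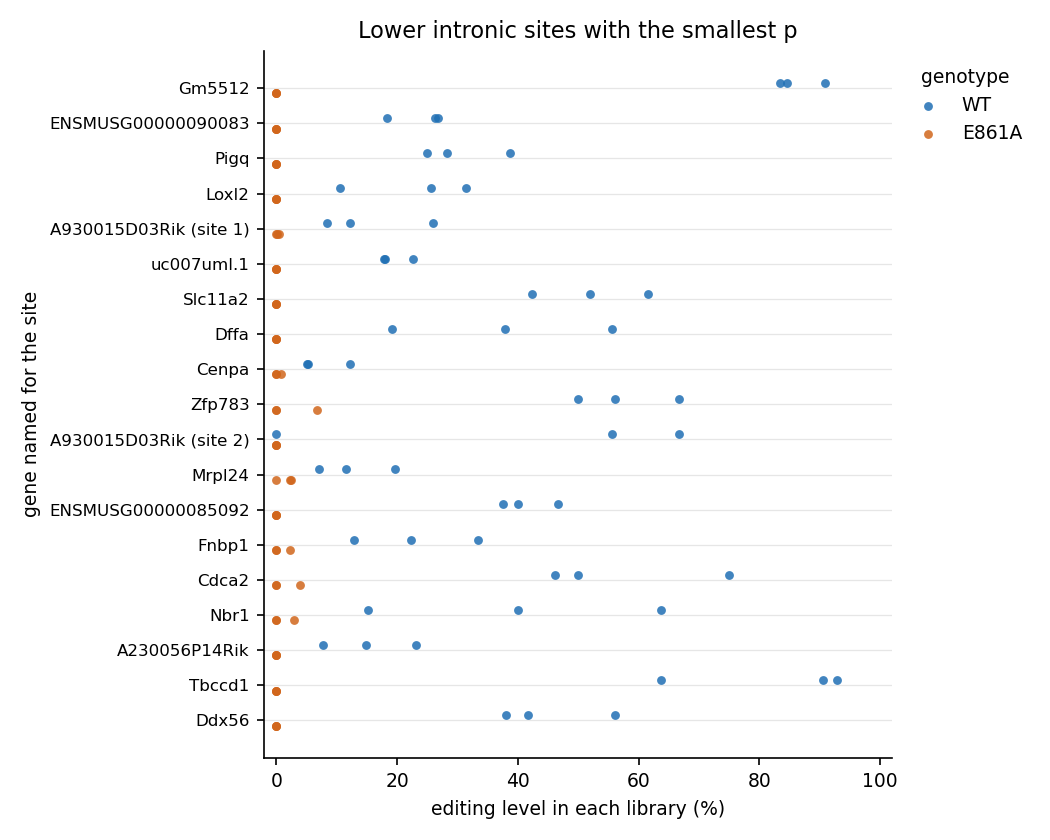
Editing level in each library (percent, horizontal axis) at 19 lower members with the smallest p-values (rows, by the gene listed for the site); blue points are 3 WT and orange points 3 E861A libraries. At 18 of the 19 sites every WT point lies to the right of every E861A point. The exception is the second A930015D03Rik site, where WT 17 is at 0. The sites were picked by p-value from these same reads, so this separation is partly built in. For all members covered in all 6 libraries it held at 172 of 1396 (12.3%).

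Counted by gene, members were spread thinly: 413 of 741 genes had 1. Tbccd1 had 9 members, 5 of them lower. Summed over the 9, the level was 46.6%, 55.2% and 36.3% in WT 2, 15 and 17 and 0 of a summed cover of 135 in E861A. A read that spans several sites counts at each in such sums, so summed cover is not a number of separate reads. Its site at position 22854516 was edited in 39 of 46 WT reads (84.8%) but had only 12 E861A reads, none edited, which allows up to 25.0%. Zfp809, a zinc-finger protein that silences retroviral sequences, had 11 members and 7 lower. Summed over the 11, the level was 5.56%, 14.1% and 11.1% in WT and 0 of a summed cover of 935 in E861A. All 11 Zfp809 members had no edited E861A read.

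Coq5, a methyltransferase of ubiquinone synthesis, had 5 members in intron 3, all lower, a gene named after its values were seen. The summed level was 16.7%, 33.3% and 17.3% in WT 2, 15 and 17 and 0 of a summed cover of 299 in E861A. Zkscan3, a zinc-finger repressor of autophagy genes, had 9 members within 46 bases. Of these 4 were lower, from 4.75% to 0.343% summed over the 9. The 15 members listed under uc009tob.1 overlap Emd on chromosome X. Of their summed cover, 9.48% of 496 was edited in WT and 0 of 346 in E861A. None passed the test alone, with at most 51 WT reads at a site. March2, a ubiquitin ligase of membrane traffic, had the most members, 16, at low levels (3.48% and 1.10% summed), of which 1 was lower.

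Other genes with many members still had edited E861A reads, in differing amounts. Summed over its members, Dlst, a subunit of the 2-oxoglutarate dehydrogenase complex, went from 13.4% to 5.37% (10 members, 3 lower). Btrc, the substrate receptor of a ubiquitin ligase, was at 5.69% and 3.02% with no member called of 9. Elavl1, the RNA-binding protein HuR, was at 5.80% and 4.67% with none called of 8. Ivd, an enzyme of leucine breakdown, was at 3.27% and 1.51% with none called of 11. Dlg4, a scaffold protein, was at 13.4% and 1.82%, at a summed cover of only 134 and 165. It had 3 edited E861A reads, 8 of its 10 members had none, and no member was called.

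The 2 higher members were adjacent adenosines in intron 42 of Flna, which encodes the actin cross-linker filamin A. At chromosome X, position 71471989 the level was 20.9%, 25.9% and 28.9% in WT 2, 15 and 17 and 30.4%, 42.6% and 40.9% in E861A 6, 16 and 19, so that the groups did not overlap. Summed, 50 of 209 WT reads (23.9%) and 100 of 262 E861A reads (38.2%) were edited (Fisher's exact test, adjusted p = 0.00811). At position 71471988 the levels were 1.85%, 9.26% and 6.82% in WT and 13.9%, 11.9% and 12.9% in E861A (4.85% and 13.0% summed; adjusted p = 0.0246). Both calls were lost without WT 2 (adjusted p = 0.219 and 0.595) and without E861A 19 (0.103 and 0.0635), and that at 71471988 also without E861A 6 (0.0687). GENCODE M1 has an exon of a retained-intron transcript over this intron, which is 526 bases long.

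Flna is a known substrate of ADAR2, whose duplex forms between the end of an exon and the following intron. The window below shows the edited intronic stretch, with both higher members in capitals.
Flna, chrX:71471973-71472004, minus strand: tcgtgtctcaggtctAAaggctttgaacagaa

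In the exon before this intron, at a site that is no member, Flna was at 3.91% in WT and 8.26% in E861A (Fisher's exact test, adjusted p = 1.72e-06). Adarb1 was at 10.2 ± 2.05 CPM in WT and 9.08 ± 1.78 in E861A (SD, n = 3 each). Flna was at 588 ± 37.6 and 515 ± 188 CPM, and neither gene passed edgeR's test (adjusted p = 0.721 and 0.703).

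Among 477 members at 10% or more in WT, 350 had no edited E861A read, 100 had 1 to 4 and 27 had 5 or more. The 477 were picked by their WT level in the same reads, so a lower E861A level is partly built in. The 350 had a median of 21 WT and 19 E861A reads, too few to exclude a low level, and 81 of them were lower. The 27 with 5 or more edited E861A reads, in 20 genes, were picked out by their values and are described without a test of their own. Of them 4 were lower (in Trim12a, Dlst, Mrpl24 and Casc3), 1 was higher (Flna) and 22 were not called. Only 2 of the 27 had an inverted match over the site.

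The site at chromosome 8, position 4089029 had G in all 677 WT reads and 930 of 931 E861A reads. A Sfi1 site at chromosome 11, position 3059513 was at 90.6% of 117 and 92.4% of 131 reads; Sfi1 encodes a centrosome protein. They were the 2 members above 90% in both genotypes. In Eif3g, a translation initiation factor subunit, the site at chromosome 9, position 20699416 lay 3 bases from an exon edge and was at 43.2%, 43.9% and 44.1% in WT 2, 15 and 17 and 67.4%, 43.6% and 16 of 40 reads in E861A 6, 16 and 19. The Akap8l site at chromosome 17, position 32473150 was 2 bases from an exon edge, with 4 of 12 WT and 10 of 16 E861A reads edited. Under 2610044O15Rik, 5 sites were among the 27, at 11.5% to 41.7% in WT and 11.1% to 57.1% in E861A. GENCODE M1 has no intron over these 5, which lay 12621 to 18818 bases from the nearest exon edge. Some had their A on the plus and some on the minus strand.

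**Figure D5:**
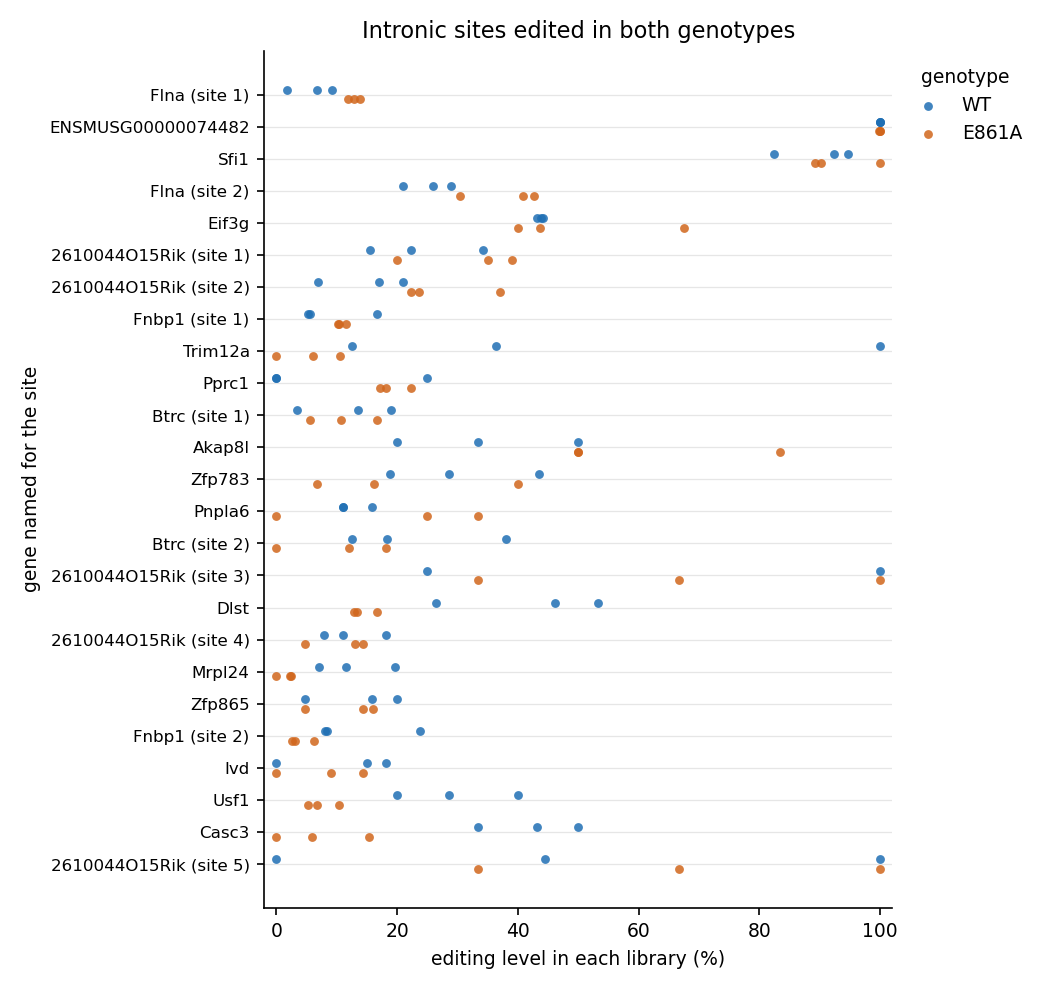
Editing level in each library (percent, horizontal axis) at 24 members with at least 10% in WT and at least 5 edited E861A reads, with the other higher Flna site on top; blue points are WT and orange points E861A libraries. Points of the genotypes overlap at most sites, and they are apart at both Flna sites, Dlst, Casc3, Mrpl24, Usf1, Trim12a, the second Fnbp1 site and the second 2610044O15Rik site.

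Some neighbours behaved unlike each other. In Zfp783 the lower site at 57.4% and 3.77% lay 7 bases from position 47898509, which was at 32.1% in WT and 17.9% in E861A and was not called. In Fnbp1, a membrane-bending protein of endocytosis, position 30886463 of chromosome 2 fell from 21.1% to 0.599% (adjusted p = 1.56e-07), and position 30885904 in the same intron was at 12.1% and 10.8%. In Dlst, position 86465358 of chromosome 12 fell from 41.1% to 13.8% (adjusted p = 0.00381), a call lost without WT 2 (0.0503) or without E861A 19 (0.0778). Differences between neighbouring sites were not tested.

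The 10 most covered members included sites with almost no editing. In Meg3, an imprinted nuclear non-coding RNA, position 110785854 of chromosome 12 had 3572 WT and 4612 E861A reads, edited at 0.252% (9 reads) and 0.347% (16 reads). Position 110786171 had 1 edited read in each genotype, of 2278 and 3359. Gnas, with 1 edited read of 482 and 0 of 335, and Mrpl24 position 87725371, with 0 of 356 and 2 of 378, were as low. In Mrpl24 the site 2 bases further, 87725373, fell from 12.7% (45 of 354) to 1.61% (6 of 373). Over all members, 473 had a single edited read in the 6 libraries, and 270 had none in WT.

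Reads over an intron can come from unspliced RNA of its gene, so the expression of the host genes was tested too. On the edited strand 141 members, 19 of them lower, lay inside a GENCODE M1 exon, where reads can also come from spliced RNA. Among them were the named Dffa site and the members of Zkscan3, Ivd, Fnbp1 and Flna. Of 741 gene names, 701 were found in the deposited gene counts at the site's locus, and 698 of the genes could be tested. In E861A 23 rose (3.30%, against a background of 7.77% of all tested genes) and 47 fell (6.73%, against 4.26%) by the quasi-likelihood test of edgeR (Benjamini-Hochberg adjusted p). The median log2 fold change was -0.13 for host genes and 0.04 for all genes tested. Of 70 host genes with a lower member, 3 rose and 9 fell. The counts turned on single libraries: without WT 17 there were 9 rising and 3 falling, without WT 15 13 and 10, without E861A 16 9 and 6, and without WT 2 25 and 114. A fit that also held sex gave 8 rising and 1 falling.

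Adar was itself a host gene. It was at 56.7, 78.99 and 57.3 CPM (reads scaled to library size) in WT 2, 15 and 17 and at 275, 344 and 334 in E861A 6, 16 and 19, a log2 fold change of 2.30 ± 0.192 (SE; edgeR adjusted p = 0.00026, n = 3 each). WT 15 had the most Adar RNA and the highest mean intron level of the WT livers. WT 2 and WT 17 had nearly equal Adar RNA, at mean intron levels of 7.22% and 9.62%. A link between Adar RNA and editing level was not tested. Trim12a, of a family of antiviral ubiquitin ligases, rose from 8.36 ± 0.243 to 104 ± 8.22 CPM (SD, n = 3). The cover of its site at chromosome 7, position 111456572 was 20 reads in WT and 189 in E861A. The level there fell from 30.0% to 6.35% (Fisher's exact test, adjusted p = 0.0218), while the edited reads numbered 6 in WT and 12 in E861A. Without WT 17 or without E861A 16 the call was lost (adjusted p = 0.0634 and 0.107).

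The other named rising hosts were Rnf114, Serping1, Tor1aip1, Tor1aip2, Usf1, Krtcap2, Renbp and Npc2. Serping1, the C1 inhibitor, was at 26.1 ± 3.06 and 104 ± 22.1 CPM, and Rnf114, a ubiquitin ligase, at 57.1 ± 6.00 and 223 ± 28.7 (SD, n = 3). The 10 named falling hosts were Btnl10, Ogdh, Slc16a6, Fech, Tfdp2, Gm16867, Smpd4, Zfp672, Diap3 and Pigq. Btnl10, a butyrophilin-like gene, fell by 1.64 ± 0.211 on the log2 scale. Its single member, at chromosome 11, position 58739683, went from 361 to 114 reads and from 6.65% to 0. Fech, the enzyme that puts iron into haem, fell by 1.60 ± 0.285 and had 2 members, neither lower. Pigq fell by 1.12 ± 0.217.

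Across the libraries, erythroid markers summed to between 23040 and 56894 CPM in WT and between 19123 and 21490 in E861A, with all 11 of the list measured. Hepatoblast markers, 6 of 6 measured, summed to 15181 to 19528 and 18557 to 27205 CPM, and macrophage (5 of 6 measured) to 96.9 to 137 and 77.8 to 104. Endothelial markers (4 of 4) summed to 242 to 298 in WT and 208 to 343 in E861A, mesenchymal markers (5 of 5) to 366 to 1370 and 460 to 1197. The 4 neuronal markers stayed at 6.58 CPM or less in sum. The part of these shifts in the host genes and in intron cover was not tested. In whole-liver RNA, fewer cells of a type and less RNA per cell cannot be told apart.

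Of 33 genes listed for RNA editing and double-stranded RNA binding, 29 were tested. Adar and Eif2ak2, the double-stranded RNA kinase PKR, rose (edgeR adjusted p = 0.00026 and 0.00015). Drosha, Dicer1, Sfpq and Dhx9 fell (edgeR adjusted p = 0.0181, 0.0269, 0.0398 and 0.0498), the last 2 close to the threshold of 0.05. These 2 and 4 of 29 stand beside 7.77% rising and 4.26% falling among all genes tested. Drosha, which cuts primary microRNA hairpins, went from 136 ± 9.60 to 86.7 ± 4.75 CPM, and Dhx9, a helicase that unwinds RNA duplexes, from 501 ± 75.3 to 316 ± 43.8 (SD, n = 3). The median log2 fold change of the list was -0.16, beside 0.04 for all genes tested. Of the known substrates and abundant nuclear RNAs followed by name, Flna and Meg3 are given above, and the site in Airn had 0 of 23 WT and 1 of 28 E861A reads edited.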

How the data were processed

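Livers of 3 WT and 3 E861A embryos were compared. Tools named in the submitters' processing notes are BWA, HTSeq, limma, edgeR, Cufflinks, SAMtools 0.1.19, Bowtie2 2.1.0.0, TopHat2 2.0.8 and Trimmomatic 0.30, and the builds are mm9 and NCBIM37. Their order and the rule that put a site in the table are not given in the sources used here. For every site and library the deposited site table gives a count of reads over the site and the fraction of them that was edited, per the file headers. It also holds, as deposited, a difference between the genotypes, a score, and the authors' p-value, neither used for a result. Gene expression came as raw counts, as the authors deposited them, 35280460 to 43733715 reads per library.

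Edited reads were level times cover, and in sums over sites a read that spans several sites counts at each. Fisher's exact test (SciPy 1.17.1, Python 3.11.15, pandas 2.3.3, NumPy 2.4.6) compared reads summed per genotype, two-sided, with Benjamini-Hochberg adjustment over 3883 sites and a threshold of 0.05. Library means were compared by two-sided exact permutation tests, and a level of 0 was bounded by 3 reads. Intervals (Wilson) and bounds cover counting error only, since reads are not independent molecules. Genes were tested with edgeR 4.0.16 in R 4.3.3 (TMM, filterByExpr, robust fit), with DESeq2 1.42.0 as an alternative. CPM are counts scaled by TMM library sizes, and SE is that of the log2 fold change. The labels do not say that the livers came from separate litters, so the permutation and edgeR p-values measure the spread between these samples. Fisher's exact test on summed reads holds no spread between livers, so its p-values measure counting error only.

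All 6012 reference bases matched NCBIM37, and GENCODE M1 gave introns and exons. Inverted matches and copies were found with BLAST+ 2.17.0. Host names were matched by symbol, and 2 whose counted gene lay on another chromosome or over 3 Mb away were left out. Symbols turned into dates were resolved by position where an annotated gene fitted the date (March2). The symbol of 4 members in 1 gene was not resolved and counts as a gene name. Named were the 20 lower members with the smallest p, each higher member, the 10 with most reads, the 15 genes with most members, and up to 10 host genes in each direction. Some named items are not reported here. Members, lists and tests were chosen with earlier results of these data known. Scripts were tested on simulated data.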

Additional observations from a re-analysis of the deposited data

How the results depend on the processing

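No paired analysis was possible because WT and E861A livers carry different numbers and no litter is named. The count of 122 lower members was 53 in male libraries alone, where WT 2 stood alone against 3 E861A livers, and 0 with the spread of each site estimated from its own libraries. Leaving out 1 library at a time gave 67 (without E861A 19) to 134 lower members, and without E861A 16 it was 80. Of the 2 higher members, 0 remained with the spread of each site, 0 without members inside a GENCODE M1 exon, and 0 to 4 were called with single libraries left out, 0 of them without WT 2 or E861A 19, 1 without E861A 6 and 4 without E861A 16. The difference between introns and 3′ UTRs turned to 0.516 at 20 reads per genotype, and it ranged from -0.830 to 0.0093 with single libraries left out (the highest without E861A 19). The cause was not tested. Cover scaled to gene reads, 35.05 higher in E861A, became -133 in male libraries, -4.26 for members not listed as known alone, and -15.3 to 124 with single libraries left out. Host genes rising numbered 23, 8 with sex as a covariate, 3 in male libraries and 9 to 25 with single libraries left out. Host genes falling numbered 47, 1 with sex as a covariate, 0 in male libraries, 113 with DESeq2, and 3 to 114 with single libraries left out, 29 of them without E861A 19. The difference in mean intron level kept its direction under each alternative run. None of the 63 named sites reversed a called direction. With the spread of each site, every call among them was lost (26 sites), since that model called 0 members. The shared-spread model and the splits by exon, by level above 90% and by known label were added after seeing the data. Levels from fewer than 20 reads cannot show changes of a few percentage points.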

Other observations

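The 1369 intronic sites with too few reads for the test were edited, summed over sites, at 18.8% of 3407 reads in WT 2, 24.5% of 2377 in WT 15 and 24.9% of 2177 in WT 17. In E861A 6, 16 and 19 the shares were 7.24% of 1823, 8.09% of 2299 and 9.78% of 3588 reads. Each of these sites entered the table with an edited read in some library, so these shares are not levels of unselected adenosines.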
